A study of Homo sapiens with 8 samples.

Results

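The mitochondrial ribosomal protein genes were examined in DLD-1 cells, a line of human colorectal adenocarcinoma cells, after transfection with a miR-143 duplex. The members are the nuclear genes whose current symbol starts with MRPL or MRPS and a number, with pseudogenes and antisense genes left out, a rule that uses symbols and no measured value. RefSeq lists 77 coding genes with such a symbol, and 75 of them had a probe set of their own on the array, 48 with an MRPL and 27 with an MRPS symbol, among 19752 genes in all. The remaining 2, MRPL53 and MRPS24, had no probe set annotated to them alone and have no value here. The miR-143 group was 4 cultures that received 50 nM miR-143 duplex with Lipofectamine, and the mock group was 4 cultures taken through mock transfection. RNA was taken at 24 h from both, and every culture had an Affymetrix expression array to itself. Both groups are the same cell line in the same medium, and no array of another duplex was used here, so duplex as such and miR-143 in particular cannot be told apart. Values are log2 units after RMA, as deposited. Probe sets differ in how strongly they respond to the same amount of RNA, so no value here ranks the genes by abundance.

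Mitochondria keep a ribosome of their own, which reads the few messages encoded in mitochondrial DNA and makes membrane subunits of the respiratory chain and ATP synthase. Its rRNAs come from mitochondrial DNA, while all its proteins are encoded in the nucleus, made on cytosolic ribosomes and imported. Many of these proteins belong to families found in bacterial ribosomes, and others occur only in mitochondria. The small subunit reads the message, and the large subunit joins the amino acids at the inner membrane. Colorectal carcinoma lines such as DLD-1 use both glycolysis and respiration.

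The duplex carries the mature strand below, shown because it is what distinguishes the groups, with its seed (bases 2 to 8 from the 5′ end) in capitals. The sequence is that of RefSeq for hsa-miR-143-3p on GRCh38.p14, chr5:149428978-149428998, plus strand.
hsa-miR-143-3p: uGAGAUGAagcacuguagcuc

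The promoters of 3 members are shown because these genes lie among the 5 members of lowest p below and hold letters marked here. MRPS27 and MRPL39, also among those 5, held none of the marked strings and are not shown. Each promoter shown runs from 250 bases before the annotated start to 50 bases after it, 5′ to 3′ on the gene's strand, from RefSeq on GRCh38.p14. The MRPL50 match lies after the start. Capitals mark matches, on either strand, to 5 strings of letters: CCGGAAG (the core bound by ETS factors such as GABPA), GCGCANGCG (NRF1), AAGATGGCG (YY1), CACGTG (the E-box) and the palindrome CTCGCGAG. MRPL57 is at chr13:21176408-21176707 on the plus strand, MRPL50 at chr9:101398569-101398868 on the minus strand and MRPS33 at chr7:141014903-141015202 on the minus strand.
MRPL57: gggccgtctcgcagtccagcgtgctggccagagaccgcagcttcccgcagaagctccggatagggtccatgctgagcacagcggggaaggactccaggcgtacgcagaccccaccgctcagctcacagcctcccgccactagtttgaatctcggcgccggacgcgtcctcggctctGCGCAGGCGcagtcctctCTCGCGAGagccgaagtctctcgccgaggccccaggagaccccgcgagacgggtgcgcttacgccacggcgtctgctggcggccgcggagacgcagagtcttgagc
MRPL50: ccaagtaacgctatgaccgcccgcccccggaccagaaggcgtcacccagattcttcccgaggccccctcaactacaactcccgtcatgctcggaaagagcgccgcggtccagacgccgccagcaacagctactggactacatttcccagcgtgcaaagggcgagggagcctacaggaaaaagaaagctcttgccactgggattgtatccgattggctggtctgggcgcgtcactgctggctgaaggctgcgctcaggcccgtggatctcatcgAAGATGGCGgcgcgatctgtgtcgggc
MRPS33: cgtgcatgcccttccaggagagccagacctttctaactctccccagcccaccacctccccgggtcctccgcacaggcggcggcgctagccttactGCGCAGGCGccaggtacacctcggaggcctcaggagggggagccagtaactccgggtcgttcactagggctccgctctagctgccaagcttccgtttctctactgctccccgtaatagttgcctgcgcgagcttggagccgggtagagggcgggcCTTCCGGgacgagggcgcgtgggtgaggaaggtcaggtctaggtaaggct

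A promoter was found for 67 of the 75 members, all except MRPL2, MRPL10, MRPL13, MRPL15, MRPL21, MRPL23, MRPL35 and MRPS28. The ETS letters stood in 28 of the 67 (41.8%), against 14.4% of the promoters of all genes on the array and 10.7% of all 27305 promoters of this length. The YY1 letters stood in 12 (17.9%, against 2.76% of array genes and 1.85% of all promoters) and the NRF1 letters in 13 (19.4%, against 11.2% and 8.05%). The E-box stood in 6 (8.96%, against 8.9% and 7.43%) and CTCGCGAG in MRPL57 alone (1.49%, against 1.49% and 1.06%). None of the 5 strings stood in 23 member promoters (34.3%, against 75.7% of all promoters), and 13 members held 2 or more. The share with none was not counted among array genes, whose promoters held each string more often than all promoters did. The count of 13 has no background here. A match is a description of the letters and not of a bound site.

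As a coarse description, the probe sets of all 75 members had values above the median gene's value on all 8 arrays. Of 7 epithelial markers, EPCAM, CDH1, KRT8, KRT18 and KRT19 lay in the upper quartile of values on every array, CDX2 lay above the median on 8 arrays and VIL1 on 7. Of 8 measured markers of leukocytes, endothelium, fibroblasts and smooth muscle 0 lay in the upper quartile, but COL1A1 and ACTA2 lay above the median on 8 arrays and PECAM1 and MYH11 on 6. Values of different probe sets do not by themselves settle the cell type, which is taken from the labels.

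The comparison of miR-143 with mock cultures asks whether the message for the mitochondrial ribosome changes after the duplex. Most members were slightly lower in miR-143 cultures, and none passed the test over all genes. The log2 fold change was negative for 65 of the 75 members, with a median of −0.08, while 10983 of the 19752 genes (55.6%) were so at a median of −0.01. Among genes above the median level, where all members lie, the share was 64.3% and the median −0.03. Of the members 68 lay in the upper quartile of values on all 8 arrays, so genes above the median level are not matched to them in level. The sizes depend on the scaling between arrays. After cyclic loess 49 of the 75 members were negative (median −0.02) beside 47.9% of all genes (median 0.0032), and after quantile normalization 46 were (median −0.02) beside 49.1% of all genes (median 0.0014). The members ranged between −0.34 for MRPL57 and 0.05 for MRPL2, with 25 members below −0.1, 50 within 0.1 of 0 and 0 above 0.1. RMA values of whole RNA are relative, so fewer copies per cell and a change in the rest of the RNA cannot be told apart.

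With limma and Benjamini-Hochberg adjustment, 0 members were called, lower or higher, against a background of 0% of all genes, and the lowest adjusted p among members was 0.9999 (0.126 among all genes). At an unadjusted p under 0.05 limma gave 2 lower members, MRPL57 and MRPL50, against a background of 1.7% of genes lower (3.03% of genes above the median level, and 2.67% of members), and 0 higher members against 0.714%. The exact permutation test over the 70 assignments of 4 and 4 arrays, which cannot go below 0.0286, gave no member a p under 0.05, and its lowest value was 0.0571. The 4 miR-143 arrays lay below the 4 mock arrays for 0 members (background 1.24%) and above them for 0 members (background 0.719%).

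**Figure D1:**
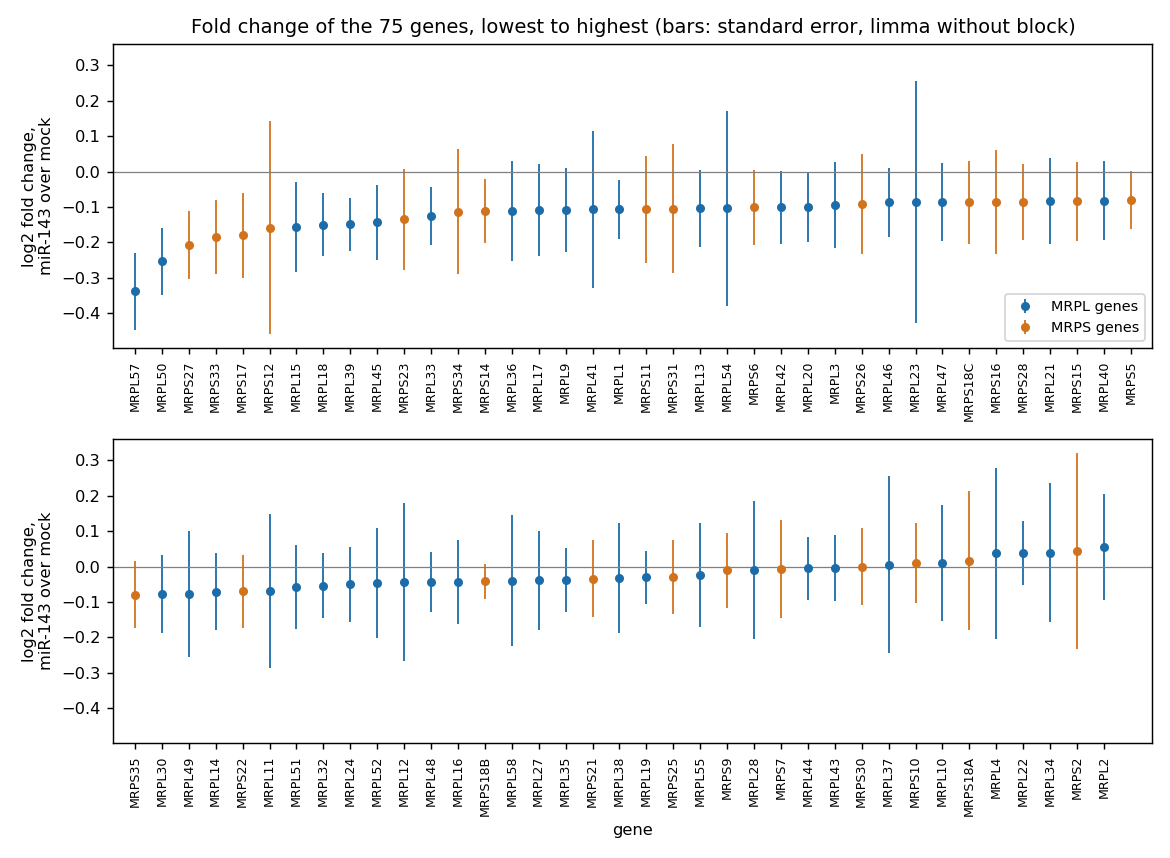
Log2 fold change of each of the 75 genes (y axis, miR-143 over mock, points) with its standard error from limma without a block (bars), ordered along the x axis from the lowest to the highest. Blue points are MRPL and orange points MRPS genes. MRPL57 at −0.34 and MRPL50 at −0.25 lie lowest, and both kinds of gene are spread along the whole order up to MRPL2 at 0.05.

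The labels number the cultures 1 to 4 in both groups, and with that number as a block limma called more genes, 0.623% of all genes lower and 0.167% higher. Only MRPL57 was called among the members, lower (1.33% of members, against 1.25% of genes above the median level). Its adjusted p was 0.0193 and its standard error 0.06, and 0 members were called higher. At an unadjusted p under 0.05 the block gave 11 lower members (14.7%) against a background of 6.92% of all genes and 12.4% of genes above the median level, and 0 higher members against 2.64% and 3.51%. The MRPL57 call was lost when the arrays of replicate 1, 3 or 4 were left out of the blocked comparison and held without replicate 2. Lower in all 4 same-numbered comparisons were 8 of the 75 members (10.7%), against a background of 10.9% of all genes and 15.4% of genes above the median level. These were MRPL1, MRPL18, MRPL45, MRPL48, MRPL50, MRPL57, MRPS26 and MRPS27. No member was higher in all 4, against 6.54% of all genes and 5.66% of genes above the median level.

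MRPL57 encodes a small protein of the large subunit that occurs only in mitochondria. Its log2 values were 12.49, 12.47, 12.37 and 12.79 on the miR-143 arrays of replicates 1 to 4, and 12.84, 12.68, 12.85 and 13.09 on the mock arrays. The miR-143 value was lower at every number, and the groups overlapped only because replicate 4 of miR-143 lay above replicate 2 of mock. The fold change was −0.34 ± 0.11 (SE, n = 4 each) by limma without block, 0.79 times the mock level, with an unadjusted p of 0.0121, an adjusted p of 0.9999 and an exact permutation p of 0.0571. All 4 probe sets of MRPL57 were lower, at −0.34, −0.30, −0.26 and −0.20.

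MRPL50, another mitochondria-specific protein of the large subunit, had values of 10.73, 10.78, 10.86 and 10.52 in miR-143 cultures, and 11.19, 10.83, 10.98 and 10.91 in mock cultures. Its miR-143 replicate 4 was the lowest of its arrays, whereas replicate 4 was the highest miR-143 array for 71 of the 75 members. The fold change was −0.25 ± 0.10 (SE), with an unadjusted p of 0.0246 by limma, an exact permutation p of 0.0571 and an adjusted p of 0.182 with the block. Its 3 probe sets gave −0.25, −0.17 and −0.13.

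MRPS27, a small subunit protein with the helical repeats of RNA-binding pentatricopeptide proteins, had values of 10.47, 10.51, 10.31 and 10.70 in miR-143 cultures, and 10.67, 10.67, 10.56 and 10.91 in mock cultures. It was lower at every number, and the groups overlapped through replicate 4 of miR-143. The fold change was −0.21 ± 0.10 (SE), with an adjusted p of 0.0911 by limma with the block. Its other probe set gave 0.02.

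**Figure D2:**
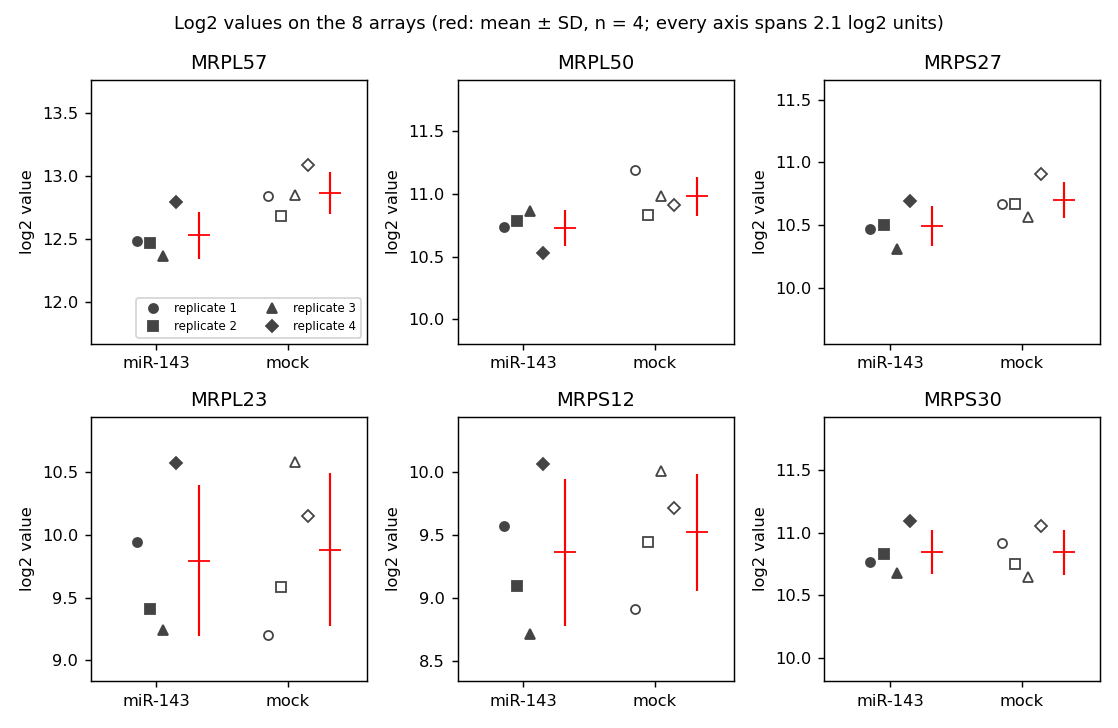
Log2 values (y axis) of 6 genes on the 4 miR-143 arrays (filled) and the 4 mock arrays (open), with marker shapes for the replicate numbers and red bars for the mean ± SD (n = 4), every axis with the same span. MRPL57, MRPL50 and MRPS27 lie lower in miR-143 with some overlap, MRPL23 and MRPS12 spread widely inside each group, and the groups of MRPS30 coincide.

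The other members of lowest p on the lower side were MRPL39, MRPS33, MRPL18, MRPL33 and MRPS17. MRPL39 had values of 11.181, 11.382, 11.251 and 11.255 in miR-143 and 11.472, 11.255, 11.392 and 11.542 in mock, and MRPL18, of the bacterial L18 family at the central protuberance, had 11.79, 11.83, 11.69 and 12.04 in miR-143 and 11.95, 11.86, 11.99 and 12.16 in mock. In both the groups overlapped, and MRPL39 was higher in miR-143 at replicate 2. Their fold changes were −0.15 each, and MRPS33, MRPS17 and MRPL33 gave −0.18, −0.18 and −0.12. None of these 5 had an adjusted p below 0.285 with the block, the value of MRPS33.

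On the higher side MRPL2, which sits near the catalytic centre, lay highest. It had values of 8.99, 8.78, 8.63 and 9.34 in miR-143 and 8.71, 8.95, 8.75 and 9.10 in mock, a fold change of 0.05 ± 0.15 (SE). MRPS2, MRPL34, MRPL22 and MRPL4 followed at 0.04 each. MRPL22 and MRPL4 line the exit tunnel for the new chain, and MRPS2 belongs to the small subunit. The standard errors of these 5, between 0.09 and 0.28, exceeded their fold changes, and so did those of the 3 members nearest 0, MRPS30 (4.3e-05), MRPL43 (−0.0044) and MRPL44 (−0.0052).

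The large and the small subunit gave similar medians. Negative fold changes were found for 42 of the 48 MRPL and 23 of the 27 MRPS genes, with medians of −0.07 for MRPL and −0.08 for MRPS genes, a difference of 0.01 that is smaller than its SD of 0.04 over the 4 same-numbered comparisons. Symbols do not follow the place in the ribosome in every case, since MRPS30 and MRPS18A lie in the large subunit. Counted by place, 42 of 50 large subunit genes were negative (median −0.07) and 23 of 25 small subunit genes were (median −0.09). On each array the mean of the MRPL genes minus that of the MRPS genes was 0.08, 0.08, 0.10 and 0.09 in miR-143 cultures and 0.08, 0.07, 0.09 and 0.08 in mock cultures. The ranges overlap, but the miR-143 array was higher than the mock array at every number, by 0.0059, 0.0059, 0.0055 and 0.0085. By place the same differences were 0.017, 0.013, 0.0060 and 0.031. They were not tested, and the medians did not follow them, since the median difference was lower for MRPL than for MRPS genes in replicates 1 and 2 and higher in replicates 3 and 4. After cyclic loess the median fold changes were −0.015 for MRPL and −0.028 for MRPS genes.

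By ancestry, 38 of 45 members from bacterial families were negative with a median of −0.08, and 27 of 30 mitochondria-specific members with a median of −0.08. MRPL57, MRPL50, MRPS27, MRPL39 and MRPS33, the 5 members of lowest p, are all mitochondria-specific, and the next by p, MRPL18, MRPL33 and MRPS17, are all from bacterial families. The cut at 5 comes from these same data, and a difference by ancestry was not tested. Members with the ETS letters in their promoter had a median of −0.08 (26 of 28 negative), as did the 39 without them (33 negative). The 12 members with the YY1 letters had a median of −0.04, between −0.25 for MRPL50 and 0.04 for MRPL22, and the 55 others a median of −0.08.

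MRPS18A, MRPS18B and MRPS18C are paralogs that take separate places in the ribosome. MRPS18A, in the large subunit, had a fold change of 0.02 ± 0.20 (SE). MRPS18C, a small subunit copy, had −0.09 ± 0.12, and MRPS18B, the other small subunit copy, −0.04 ± 0.05. In the counts by ancestry MRPS18C was placed with the bacterial families. Its paralogs MRPS18A and MRPS18B were placed with the mitochondria-specific members, although they share its origin. On its probe set of highest mean MRPS18B had the smallest spread of all members, between 10.74 and 10.84 on the miR-143 arrays and between 10.80 and 10.87 on the mock arrays. Its other probe set did not share this, with values between 8.32 and 9.08 in miR-143 and between 8.45 and 9.01 in mock, and a fold change of −0.12 ± 0.18 (SE).

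Members with known roles beyond structure showed no difference larger than their error. MRPL12, a stalk protein that also binds the mitochondrial RNA polymerase, had −0.04 ± 0.22 (SE), and MRPL11, at the base of the stalk where translation factors bind, had −0.07 ± 0.22. MRPL58, a peptidyl-tRNA hydrolase built into the large subunit that frees stalled chains, had −0.04 ± 0.19. MRPS12, which forms part of the decoding centre, had −0.16 ± 0.30, with values of 9.57, 9.10, 8.71 and 10.07 in miR-143 cultures and 8.91, 9.45, 10.01 and 9.72 in mock cultures. Its replicates within a group differed by more than 1 log2 unit, and the order of the numbers ran differently in the 2 groups.

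Arrays of a group differed more than the groups did. The mean over all members was 10.75, 10.69, 10.57 and 11.07 on the miR-143 arrays of replicates 1 to 4, and 10.74, 10.71, 10.83 and 11.10 on the mock arrays. Replicate 4 was the highest array for 71 members in miR-143 and for 65 in mock, and replicate 3 was the lowest miR-143 array for 63 members. The mean over all genes lay between 8.15 and 8.25 in miR-143 and between 8.19 and 8.26 in mock, with replicate 4 highest in both. The median over all genes was instead lowest in replicate 4 of both groups, at 7.54 in miR-143 and 7.51 in mock. Over all probe sets replicate 4 had the lowest lower quartile and the highest upper quartile of each group, so its values were spread more widely. The first principal component of the members over the 8 arrays held 77.4% of their variance and the second 12.1%.

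**Figure D3:**
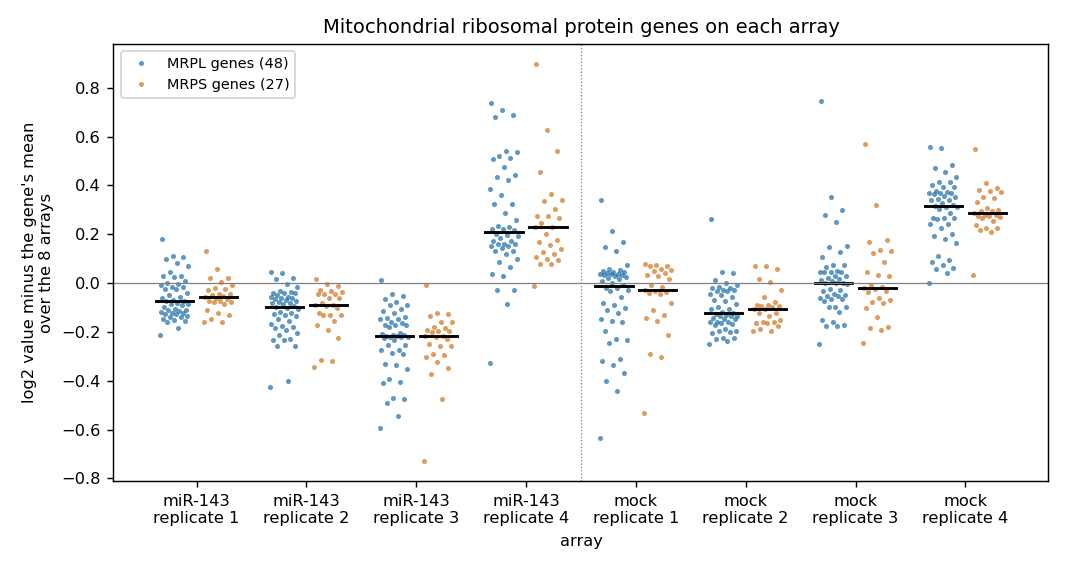
Log2 value of each gene minus its own mean over the 8 arrays (y axis) on each array (x axis, miR-143 left and mock right). Points are genes, blue for the 48 MRPL and orange for the 27 MRPS genes, and black lines are medians. Replicate 4 lies high in both groups, for 71 members in miR-143 and 65 in mock, and replicate 3 of miR-143 lies low, while the blue and orange points move together.

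The median pooled SD within groups was 0.19 for the members and 0.11 for all genes (0.15 for genes above the median level). Without replicate 4 it was 0.10 for the members, smaller for 71 of the 75, and 0.07 for all genes. Leaving out replicate 4 of mock turned the member median to 0.01 with 32 of 75 negative, and leaving out replicate 4 of miR-143 gave −0.16 with 75 of 75 negative. With both left out the median was −0.07, with 71 of 75 negative.

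The difference between same-numbered arrays also varied. In replicate 1, 46 of the 75 members were lower in miR-143 (median −0.05), in replicate 2, 30 (0.03), in replicate 3, 72 (−0.18) and in replicate 4, 47 (−0.08). The medians of all genes were −0.0044, −0.0060, −0.027 and −0.0038. Leaving out replicate 3 in both groups gave a member median of −0.04 with 47 of 75 negative, and leaving out replicate 3 of miR-143 alone gave −0.02 with 43 negative. The respiratory chain genes had the like pattern, with 69 of 76 lower in replicate 3 and 26 of 76 in replicate 2.

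**Figure D4:**
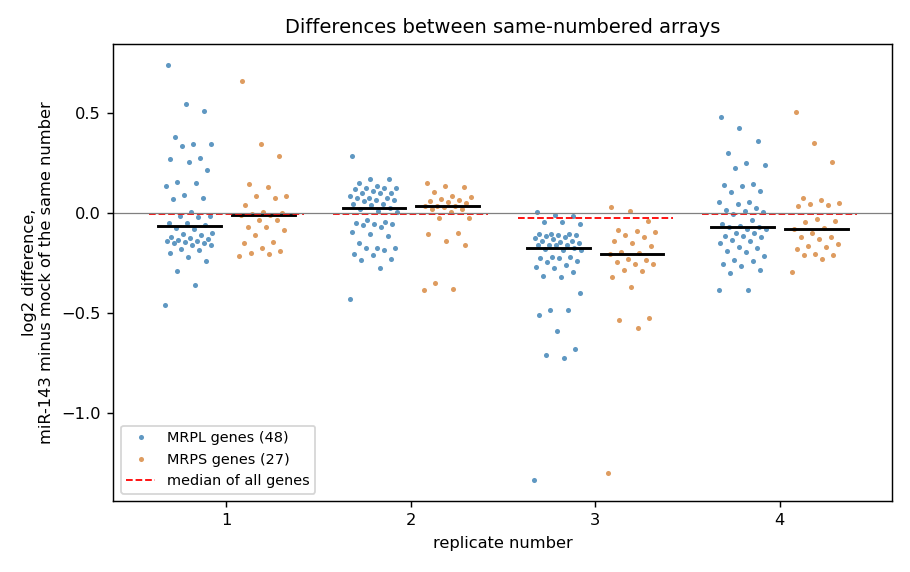
Log2 difference between the miR-143 and the mock array of the same replicate number (y axis) for each gene, by replicate number (x axis). Points are genes, blue for MRPL and orange for MRPS, black lines their medians and red dashes the median of all genes. In replicate 3, 72 of 75 members lie below 0, and in replicate 2 only 30 do.

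Across the 75 members the differences of replicates 1 and 4 correlated at r = 0.83, and those of replicates 1 and 3 at r = −0.68. These values run across genes of the same 8 arrays, which are not independent replicates, and no array is shared between the numbers. Members of wide and of narrow spread differed in these numbers. Among the 20 members of widest spread over replicates 1 to 3, a set picked by that spread and so given with no test, 18 were higher in miR-143 in replicate 1 (median 0.28) and 20 were lower in replicate 3 (median −0.50). Among the 20 members of narrowest spread, 1 was higher in replicate 1 (median −0.11) and 19 were lower in replicate 3 (median −0.11), and all 20 had a negative fold change over the groups, with a median of −0.09.

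MRPL23, whose product lies at the exit of the tunnel, spread most. Its values were 9.94, 9.41, 9.24 and 10.57 in miR-143 cultures, and 9.20, 9.59, 10.58 and 10.15 in mock cultures. MRPL54 had 9.73, 9.34, 9.27 and 10.43 in miR-143 cultures, and 9.35, 9.55, 10.00 and 10.30 in mock cultures. In both genes replicate 3 was the lowest of the miR-143 arrays, while replicate 3 of mock lay above replicates 1 and 2.

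The 3′ minus 5′ difference of the ACTB control probe sets, a measure of RNA and labelling quality, was 2.25, 2.54, 2.59 and 2.40 on the miR-143 arrays, and 2.79, 2.41, 1.68 and 2.78 on the mock arrays. For GAPDH it was 0.49, 0.65, 0.70 and 0.63 in miR-143, and 0.65, 0.61, 0.41 and 0.72 in mock. Replicate 3 of mock had the lowest difference in both controls and replicate 1 of miR-143 the next lowest. Among the 20 members of widest spread, replicate 1 was the highest of miR-143 replicates 1 to 3 for 19, and replicate 3 the highest of mock replicates 1 to 3 for 12. The part of RNA quality in the replicate 1 and replicate 3 differences was not tested.

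Of 37 members with more than 1 probe set, 22 had all of them on the same side of 0, and none of the 15 others had a probe set with an unadjusted p under 0.05. Over all 140 probe sets of the members 114 were negative. For 38 members the value rests on 1 probe set.

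The other genes of mitochondrial translation were given from lists by function, and none of their genes was called with or without the block. Their counts below are on the values as deposited. After cyclic loess the negative genes were 13 of 15 translation factors, 13 of 22 assembly factors, 5 of 10 in the rRNA list, 1 of 4 proteins with other symbols, 8 of 17 transcription genes and 7 of 10 regulators. Of the mitochondrial translation factors, which start, extend, end and recycle translation, 15 of 15 measured (16 listed) were negative with a median of −0.08. MRRF, the ribosome recycling factor, had −0.16 ± 0.08 (SE) and GFM1, the elongation factor that moves the ribosome along, −0.13 ± 0.09. Of the assembly factors 18 of 22 were negative with a median of −0.04, and the lowest p were those of the helicase DHX30 at −0.15 ± 0.08 and the inner membrane protease AFG3L2, which processes MRPL32, at −0.14 ± 0.08.

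A list of 10 genes was drawn up for enzymes that modify mitochondrial rRNA, of which 8 were negative (median −0.03). It includes NSUN3, which acts on mitochondrial tRNA, and without it 7 of 9 were negative (median −0.019). NSUN3 averaged 8.597 ± 0.078 in miR-143 and 8.775 ± 0.057 in mock (SD, n = 4 each), with an unadjusted p of 0.0144 by limma and an adjusted p of 0.178 with the block. TRMT61B, which methylates mitochondrial tRNA and rRNA, had −0.17 ± 0.10 (SE). The 4 measured ribosomal proteins with other symbols had a median of −0.04, with DAP3, a GTP-binding protein of the small subunit, at −0.06 ± 0.11 and PTCD3, a pentatricopeptide protein of the small subunit, at −0.07 ± 0.14.

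Of 17 genes for mitochondrial transcription and DNA upkeep 12 were negative with a median of −0.03, among them the elongation factor TEFM at −0.23 ± 0.09 (SE, unadjusted p of 0.0361 by limma, adjusted p of 0.16 with the block) and TFB2M, the promoter-opening partner of the polymerase, at −0.11 ± 0.09. Of 10 regulators of nuclear genes for mitochondria 7 were negative with a median of −0.06. MYC, which binds the E-box, had −0.24 ± 0.17 (SE), with an unadjusted p of 0.206 and an adjusted p of 0.9999 by limma without block. With the block its standard error was 0.05 and its adjusted p by limma 0.0719. GABPB1, the partner of the ETS factor GABPA, had −0.13 ± 0.09 without block.

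On the values as deposited, the most similar gene groups gave like medians. Of 60 cytosolic ribosomal protein genes 56 were negative (median −0.09), and of 76 respiratory chain subunit genes 67 were (median −0.06). The cytosolic ribosomal protein genes kept 53 of 60 negative when replicate 3 was left out in both groups, with a median of −0.09, against 47 of 75 and −0.04 for the mitochondrial ones and 44 of 76 and −0.01 for the respiratory chain. After cyclic loess 21 of the 60 cytosolic genes (median 0.0095) and 29 of the 76 respiratory chain genes (median 0.0083) were negative, and after quantile normalization 36 of 60 (median −0.0030) and 28 of 76 (median 0.0074) were. The median of the respiratory chain genes thus changed sign under both scalings and that of the cytosolic genes under cyclic loess. None of these 3 groups was tested as a set.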

How the data were processed

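The deposited values are log2 expression values per probe set and array, summarised by RMA with affy per the submitters' processing notes (versions not given in the sources used here), and nothing was renormalised. Of 54675 probe sets, 41091 had a single current gene symbol, 1801 several and 11721 none, and 62 were controls. Each of 19752 genes took its probe set of highest mean over the 8 arrays. Groups were compared with limma 3.58.1 in R 4.3.3 (lmFit, eBayes, two-sided, Benjamini-Hochberg over all genes, threshold 0.05). The fit without block was also run on simulated data, with independent arrays and changes larger than those of the members. Tables and plots were made with Python 3.11.15. An array gives no count, so depth does not enter the precision. Every culture had its own array, so the spread behind the p-values holds differences between cultures and between arrays together.

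The methods name no block. With each group's mean taken off, arrays of like number correlated at 0.11, 0.17, 0.58 and 0.81 over genes for replicates 1 to 4. These lie above 0.1 for every number, and the blocked comparison is given beside the other for that reason. Over all probe sets of 1 gene the like-numbered arrays of replicate 1 gave 0.08. Over the members those of replicates 1, 2 and 3 gave −0.55, −0.28 and −0.32. Some arrays of unlike number correlated more over genes. Replicate 1 of miR-143 gave 0.25 with replicate 3 of mock, and replicate 2 of miR-143 gave 0.54 with replicate 1 of mock. Replicates 3 and 4 of miR-143 correlated most with their own number. The correlations thus do not establish that like numbers are pairs, and no source says what a number stands for.

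The members, lists and tests were chosen with earlier results of these data known. Named with values were the members called with or without the block, the 8 lower and 5 higher of lowest p, the 3 nearest 0, 8 members with particular roles or places (MRPS30, MRPS18A, MRPS18B, MRPS18C, MRPL12, MRPL58, MRPS12 and MRPL11), the 4 of largest spread, and the 2 genes of lowest p of each other list.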

Additional observations from a re-analysis of the deposited data

Results flagged for a closer look

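Among 56 groups of 4 arrays tested for an array far from the other 3, 2 were marked by Dixon's criterion (the gap to the nearest array over the whole range), and chance marks about 1 in 20 such groups. The groups tested included those of the 25 named members. MRPL33 had 11.87 on replicate 4 of miR-143, above the other 3 miR-143 arrays, which lay between 11.74 and 11.76. MRPL58 had 11.45 on replicate 4 of mock, above the other 3 mock arrays at 10.80 to 10.88. Both arrays are the replicate 4 that lay highest for most members.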

How the results depend on the processing

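Arrays give no depth, and the precision is limited by the 4 cultures per group and the spread between replicates. The count of called members was 0 in every alternative except the replicate block, where it was 1 (MRPL57), and with arrays left out it lay between 0 and 1. The block treats arrays of like number as pairs, which no source states, and it changed no other member's call. Over all genes limma without block called 0 genes as deposited, 31 lower and 21 higher after cyclic loess, and 32 lower and 22 higher after quantile normalization, none of them a member. Over the same omissions 0 to 4 members had all miR-143 arrays below all mock arrays, and 3 had them after cyclic loess. The background of 1.24% of all genes was counted on the values as deposited with no array left out. It does not carry over to fewer arrays or another scaling, so these counts have no background and cannot be read as an excess. The member median lay between −0.16 and 0.01 over all alternatives (0.01 without mock replicate 4, −0.02 after cyclic loess or quantile normalization, −0.06 with array weights, −0.07 with the mean of all probe sets). The MRPL median minus the MRPS median lay between −0.017 and 0.064 over the alternatives, so its sign was not kept. It was 0.064 in genes of interquartile range above 0.25. That filter keeps 26 members, and the cause of the other shifts was not tested.

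Of the 25 named members 8 kept a negative sign in all alternatives (MRPL57, MRPL50, MRPS27, MRPL39, MRPS33, MRPL18, MRPL33 and MRPS17), and in no alternative did any member but MRPL57 pass the threshold. The others changed sign in at least 1. Array weights gave MRPS2 −0.070 and MRPS30 −0.012. Cyclic loess gave 0.040 for MRPL43, 0.036 for MRPL44, 0.015 for MRPS18B and 0.019 for MRPL58, and quantile normalization 0.040, 0.031, 0.010 and 0.022 for the same genes. The mean of all probe sets gave −0.013 for MRPS30, 0.0057 for MRPL43 and 0.062 for MRPL44, and taking each gene's most variable probe set gave 0.033 for MRPL43 and 0.13 for MRPL44.

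With arrays left out, MRPL22 lay between −0.044 and 0.099, MRPL2 between −0.081 and 0.16, MRPL34 between −0.13 and 0.19, MRPS2 between −0.25 and 0.21, and MRPL4 between −0.18 and 0.21. MRPS30 lay between −0.082 and 0.070, MRPL43 between −0.079 and 0.055, MRPL44 between −0.083 and 0.066, MRPS18A between −0.16 and 0.20, and MRPS18C between −0.17 and 0.016. MRPL12 lay between −0.24 and 0.14, MRPL58 between −0.21 and 0.11, MRPS12 between −0.43 and 0.22, MRPL11 between −0.25 and 0.10, MRPL23 between −0.36 and 0.33, and MRPL54 between −0.35 and 0.10.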
